A study of Drosophila melanogaster with 4 samples.

Results

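Glutathione transferases (GSTs) are enzymes that join the tripeptide glutathione to reactive, electrophilic compounds, which makes them easier to export. In *Drosophila* the soluble enzymes fall into the delta, epsilon, omega, sigma, theta and zeta classes. The delta and epsilon classes have expanded in insects, and their members are best known for the detoxification of insecticides, plant compounds and products of lipid peroxidation. Transcription of several of them, *GstD1* among these, is known to respond to CncC, the fly relative of Nrf2, which is held in check by Keap1.

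The genes described here were those whose probe set carried a single symbol of the form Gst plus a class letter (D, E, O, S, T or Z) and a number. This gave 34 of the 10845 genes with a named probe set: 11 delta, 14 epsilon, 3 omega, 1 sigma, 3 theta and 2 zeta. The rule itself uses names and no measured value, but the members were chosen with earlier results of these data known. *GstO2* had 3 probe sets and every other gene had 1; the brightest probe set stood for the gene.

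Signals came from 4 one-colour Affymetrix arrays of whole *Drosophila melanogaster* embryos, 3 to 5 h after egg laying at 25 °C. The 2 wild-type arrays held RNA of yw embryos. The 2 mutant arrays held RNA of embryos from mothers with *how* germline clones, from which the homozygous mutants, lacking maternal and zygotic HOW, had been picked under a fluorescence microscope with the aid of a GFP balancer. The product of *how* (*held out wings*) is an RNA-binding protein of the STAR family, and the allele is not given in the sources used here. Each array pooled 5 RNA preparations of about 100 embryos. The controls were a separate stock and the labels describe the picking step for the mutants only, so the effects of *how*, stock and picking cannot be told apart. In RNA from whole embryos, fewer cells of a type and less RNA per cell cannot be told apart either.

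Across all gene probe sets the wild-type arrays had median signals of 76.1 and 79.8, the mutant arrays 82.1 and 75.5. *how* had no named probe set, so its signal could not serve as a check of the genotype. Among marker genes, 8 of 9 tested genes of late differentiation (muscle and cuticle genes) fell in the mutant, and the summed signal of the 10 measured was between 4676 and 4704 in wild type and between 621 and 735 in the mutant. Of 4 tested genes of the earlier embryo 0 were called by limma, and all 4 lay below 0 (median -0.23). The 1 with an unadjusted p under 0.05 was *halo*, at 371 ± 24.8 in wild type and 208 ± 30.0 in the mutant (SD, n = 2). Of 4 dim ones 1, *bnk*, was higher in the mutant without overlap, beside 18.4% of all dim genes. The fat body gene *apolpp* rose, as 1 of 4 tested fat body markers, and the summed signal of all 5 measured fat body markers was 1317 to 1422 in wild type and 2120 to 2359 in the mutant, with *Fbp2* dim in both. Most of that sum was *apolpp* (1053 ± 60.9 and 1836 ± 177; SD, n = 2). Of the 4 tested, 3 were higher without overlap (*apolpp*, *Fbp1* and *svp*), and 2 had an unadjusted p under 0.05. Among all tested genes 24.4% were higher without overlap and 23.4% lower. *Fbp1*, not called, was at 30.4 ± 0.0047 in wild type and 80.9 ± 7.70 in the mutant (SD, n = 2). *Lsp2* lay slightly lower in the mutant without overlap (113 ± 8.51 and 95.6 ± 13.3; SD, n = 2). Limma called 0 of 4 tested blood cell markers, 0 of 4 midgut markers and 0 of 4 mesoderm markers, of which 1, 1 and 0 had an unadjusted p under 0.05. Among all genes tested 1.87% were called higher and 1.37% lower, so 0 calls among 4 genes do not show a list to be unchanged. At an unadjusted p under 0.05 all genes gave 8.99% above 0 and 7.37% below. Of 4 tested markers of the maternal germ plasm 2 rose, *dhd* and *pgc* (36.2 ± 0.77 and 113 ± 1.54; SD, n = 2; limma adjusted p = 0.0497). Both wild-type arrays of *pgc*, and both of *Fbp1* above, lay under the signal of 39.5 below which probe sets count as dim. Each of these genes was tested only because its mutant arrays were high. *osk*, too dim to be tested, was also higher without overlap, at 24.8 and 7.09 in wild type against 105 and 101 in the mutant. By log2 change the others were *gcl* at 0.33 and *CycB* at -0.01, neither called, and *bcd*, dim and overlapping, at -0.55. The summed signal of the 6 measured, most of it *CycB*, was 7124 to 8005 in wild type and 7600 to 8608 in the mutant. The part of embryo age, fat body or germ plasm in the changes of GST genes was not tested.

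Probe sets were tested if their mean log2 signal over all 4 arrays lay at or above the 40th percentile, a signal of 39.5. A high or low signal in the mutant alone could thus carry a gene past this filter or below it. The filter left 20 GST genes, and 14 were too dim: 6 delta, 4 epsilon, 1 omega, 1 theta and both zeta genes. A gene was called changed at an adjusted p under 0.05 by limma's moderated test, the p-values being adjusted by Benjamini and Hochberg's method over all 8380 probe sets tested.

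**Figure D1:**
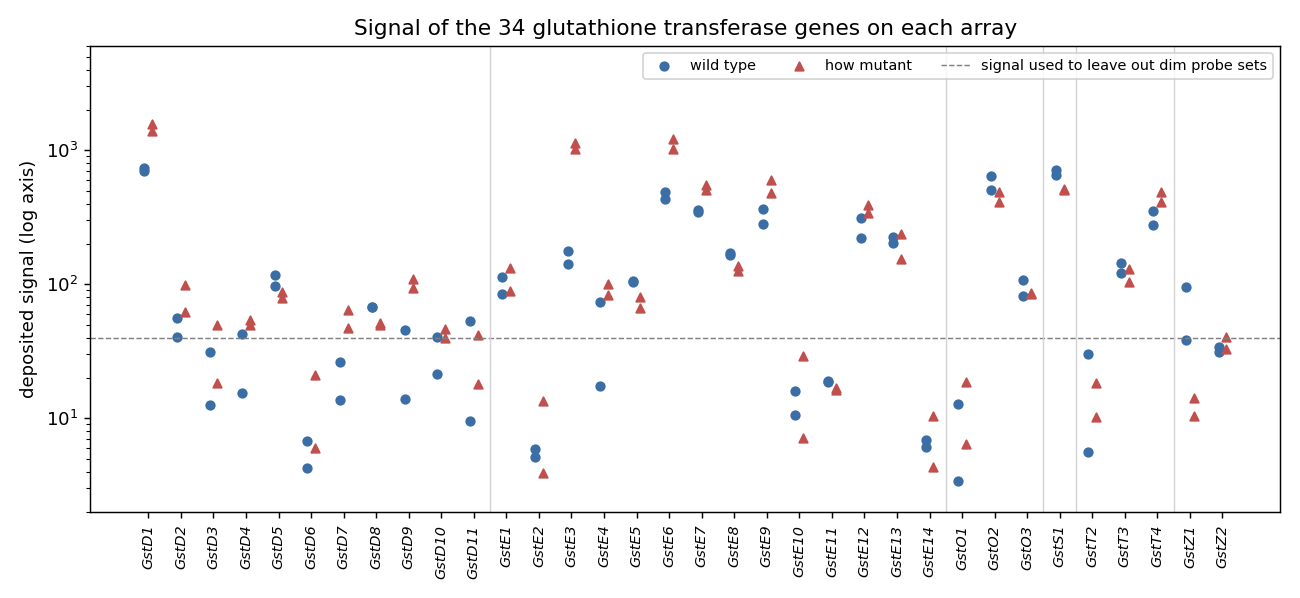
Deposited signal (log axis) of the 34 GST genes on each array, in class order, with wild-type arrays as blue circles and *how* mutant arrays as red triangles. The dashed line marks a signal of 39.5, below which probe sets count as dim. The mutant arrays lie clear of the wild-type arrays for the called genes *GstE3*, *GstE6* and *GstD1*. They also do so for uncalled genes, among them *GstD9* (higher) and the dim *GstZ1* (lower).

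*GstE3*, *GstE6* and *GstD1* had more transcript in embryos lacking HOW, and no tested GST gene was called lower. Thus 3 of 20 tested GST genes rose (15%), beside 1.87% of all 6855 genes tested, and 0 fell, beside 1.37%. The median log2 change of the 20 genes was 0.31, that of all genes tested was 0.00, and single GST genes ranged from -0.52 to 2.76. By sign alone they were split, with 11 above 0 and 9 below, and at an unadjusted p under 0.05 there were 7 above and 1 below, beside 8.99% and 7.37% of all genes tested. The count of 3 was 1 without mutant array 2, 7 with replicate number as a block, 1 with no mean-variance trend in limma and 0 when dim probe sets were kept in the test.

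*GstE3*, an epsilon class gene (probe set 147436_at), changed most. Its signal was 177 and 143 in wild type against 1125 and 1027 in the mutant. The lowest mutant array lay 2.54 log2 units above the highest wild-type array. The means were 160 ± 24.0 and 1076 ± 68.8 (SD, n = 2), a 6.74-fold rise, or a log2 change of 2.76 ± 0.17 (SE; limma adjusted p = 5.4e-04). The change was about the same in arrays numbered 1 (2.67) and 2 (2.85).

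*GstE6*, another epsilon gene (probe set 142537_at), gave 492 and 435 in wild type against 1028 and 1209 in the mutant. The groups did not overlap, and the nearest arrays were 1.06 log2 units apart. The log2 change was 1.27 ± 0.16 (SE; limma adjusted p = 0.00562), a 2.41-fold rise of the means. Without mutant array 2 the call was lost (limma adjusted p = 0.0578).

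*GstD1* (probe set 143184_at) encodes the delta class enzyme known for acting on the insecticide DDT, and its promoter is widely used as a reporter of oxidative stress. Its signal was 697 and 738 in wild type against 1383 and 1560 in the mutant, with both mutant arrays above both wild-type arrays. The log2 change was 1.03 ± 0.14 (SE; limma adjusted p = 0.00845), a 2.05-fold rise of the means. Without mutant array 1 or mutant array 2 the limma adjusted p was 0.0534 and 0.0928.

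The epsilon class has 10 genes in a row on chromosome arm 2R, with no other protein-coding gene among them, in the order *GstE10*, *GstE1*, then *GstE2* to *GstE9*, by the RefSeq table of Release 6 plus ISO1 MT. Of these, 8 were tested, 2 rose and 6 were not called. Those that rose are not neighbours: *GstE4* and *GstE5* lie between them. *GstE4* gave 73.6 and 17.3 in wild type against 99.8 and 83.4 in the mutant, a log2 change of 1.35 ± 0.65 (SE; limma adjusted p = 0.359). The wild-type arrays differed from each other by more than the nearest arrays of the groups, and the log2 change was 2.40 without wild-type array 1 and 0.31 without wild-type array 2. *GstE5*, which lies next to *GstE6*, gave 106 and 104 in wild type against 66.9 and 80.3 in the mutant, a log2 change of -0.52 ± 0.29 (SE; limma adjusted p = 0.439).

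On the far side of *GstE6*, *GstE7* gave 356 and 344 in wild type against 546 and 508 in the mutant, with no overlap. Its log2 change was 0.59 ± 0.15 (SE; limma adjusted p = 0.103). *GstE9*, at the end of the row, gave 283 and 366 in wild type against 601 and 482 in the mutant, again with no overlap, and a log2 change of 0.74 ± 0.20 (SE; limma adjusted p = 0.107). Both were therefore above wild type on every array without passing the test. *GstE8*, between them, lay the other way, with 166 and 171 in wild type, 137 and 125 in the mutant and a log2 change of -0.36. The arrays of *GstE1* overlapped between the groups (0.15), and *GstE2* and *GstE10* were too dim to be tested, with no array above 28.9. In the same table *GstE1* overlaps *GstE10* and *GstE9* overlaps the neighbouring gene *imd* at their ends, so their signals may not be fully separate.

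**Figure D2:**
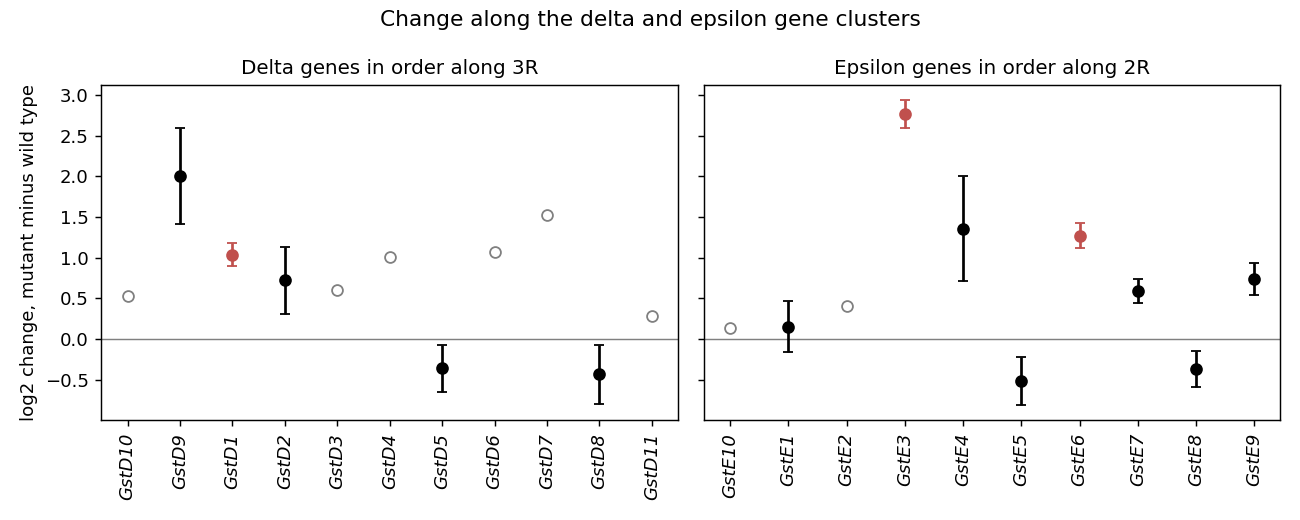
Log2 change (mutant minus wild type) of the GST genes in their order along 3R (delta, left) and 2R (epsilon, right). Bars are limma's SE, red points passed the test and open points were too dim to be tested; the highest point, *GstE3* at 2.76, and the called *GstE6* at 1.27 stand in the same row of genes as *GstE5* at -0.52 and *GstE8* at -0.36.

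The other 4 epsilon genes lie elsewhere on 2R, and neither of the 2 tested, *GstE12* and *GstE13*, was called. *GstE12* gave 314 and 220 in wild type against 338 and 388 in the mutant, without overlap, a log2 change of 0.46 (limma adjusted p = 0.348), and *GstE13* overlapped between the groups at -0.16. *GstE11* was dim on every array, with 18.7 and 19.0 in wild type against 16.9 and 16.1 in the mutant, which did not overlap. *GstE14*, known as *noppera-bo* for its need in the synthesis of the steroid hormone ecdysone, was dim as well: 6.91 and 6.12 in wild type against 10.3 and 4.30 in the mutant. Of the 6 other measured genes of ecdysteroid synthesis limma called 0, beside 1.87% of all genes tested called higher and 1.37% lower. An unadjusted p under 0.05 was seen for 3 of the 6, beside 8.99% of all genes tested above 0 and 7.37% below. By log2 change *Cyp6t3* (0.48) and *shd* (0.41) lay above 0 and the other 4 below. Those with the smallest p were the cytochrome P450 genes *dib* at -1.03 (limma adjusted p = 0.0885) and *spo* at -0.99 (limma adjusted p = 0.124), and the list's median was -0.69. With replicate number as a block both passed (limma adjusted p = 1.6e-04 and 0.0230), and *dib* also passed without mutant array 2 (0.0348).

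All 11 delta genes lie in a row on 3R, from *GstD10* through *GstD9*, *GstD1* and *GstD2* to *GstD8* and *GstD11*, with *CG10035* before the last. Of the 5 tested, *GstD1* rose and 4 were not called. *GstD9*, the neighbour of *GstD1*, had the second-highest log2 change of the tested GST genes. It gave 14.0 and 45.9 in wild type against 93.6 and 110 in the mutant, a log2 change of 2.0 ± 0.59 (SE; limma adjusted p = 0.138). The groups did not overlap, but the wild-type arrays were far apart and 1 lay below the signal of 39.5; the fold was 3.40 from the means and 1.94 with 50 added to each signal. Without wild-type array 2 *GstD9* passed, at 2.86 (limma adjusted p = 0.0490), without wild-type array 1 it was at 1.15 (0.220), without mutant array 1 at 2.12 (0.361), and without mutant array 2 it was too dim to be tested.

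On the other side of *GstD1*, *GstD2* gave 56.0 and 40.1 in wild type against 99.2 and 61.7 in the mutant, a log2 change of 0.72 ± 0.41 (SE; limma adjusted p = 0.441). Further along, *GstD5* and *GstD8* lay below wild type on both mutant arrays, at -0.36 and -0.43. *GstD8* was tight within groups, with 68.1 and 68.0 in wild type against 50.9 and 49.9 in the mutant. Its SE of 0.36, which limma draws toward the spread of other probe sets of like signal, gave an adjusted p of 0.626 in limma.

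The 6 dim delta genes, *GstD3*, *GstD4*, *GstD6*, *GstD7*, *GstD10* and *GstD11*, had log2 changes from 0.29 to 1.52; of all dim genes 48.6% lay above 0. The groups overlapped for 4 of the 6, and *GstD3*, *GstD6* and *GstD11* changed sign between arrays numbered 1 and 2. For *GstD11* the mean signal was 31.4 in wild type and 29.9 in the mutant. *GstD7* gave 26.4 and 13.8 in wild type against 64.3 and 46.8 in the mutant. *GstD4* gave 15.5 and 42.8 in wild type against 53.9 and 49.8 in the mutant. For both, the mutant arrays lay above the wild-type arrays, but the wild-type means were below the signal of 39.5, and the size of such folds is uncertain: the log2 changes of 1.52 and 1.01 became 0.59 and 0.39 with 50 added to each signal.

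Genes beside the rows were compared with them, a comparison chosen after the values were seen. Of the other named genes within 50 kb of the delta and epsilon rows, 24 were tested, with log2 changes from -0.69 to 0.85. Limma called 0, where 1.87% of all genes tested were higher and 1.37% lower, so 0 of 24 does not set them apart. At an unadjusted p under 0.05 there were 4, where all genes gave 8.99% above and 7.37% below 0. The groups did not overlap for 3 of 10 tested near the epsilon row and 8 of 14 near the delta row, where all tested genes gave 47.8%. The 13 dim ones ranged from -3.22 (*CG4115*) to 3.50 (*Dnaaf3*). Of these 5 did not overlap between the groups, where all dim genes gave 18.4% higher and 16.8% lower. Delta genes resemble each other in sequence, as do epsilon genes, and no probe sequences were used here. Signal of one gene could therefore include transcript of a close relative, which was not tested.

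**Figure D3:**
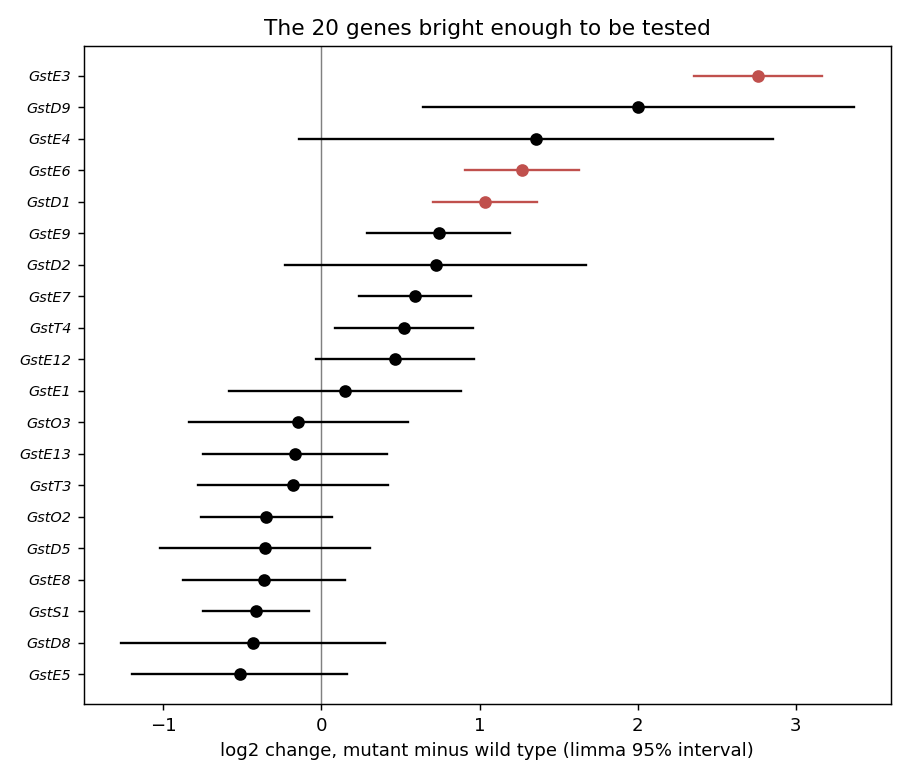
Log2 change (mutant minus wild type) of the 20 tested GST genes with limma's 95% interval, unadjusted, sorted by size. The 3 called genes are red; of the other 17, the interval spans 0 for 12, lies above 0 for 4 and below 0 for 1.

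The remaining classes gave no call. The sigma gene *GstS1*, whose enzyme is abundant in flight muscle and acts on the lipid peroxidation product 4-hydroxynonenal, gave 711 and 649 in wild type against 514 and 506 in the mutant. Both mutant arrays were lower, by a log2 change of -0.41 ± 0.14 (SE; limma adjusted p = 0.209). The interval of that change ran from -0.75 to -0.08 before adjustment over probe sets.

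Omega enzymes act as thiol transferases and dehydroascorbate reductases. Their genes lie in a row on 3L, together with *sepia* (*se*), which makes a precursor of the red eye pigment and which the naming rule did not take. *GstO2* gave 509 and 639 in wild type against 410 and 488 in the mutant, a log2 change of -0.35 ± 0.18 (SE; limma adjusted p = 0.390). A second probe set of *GstO2* lay the other way, with 66.6 and 57.0 in wild type against 73.6 and 98.3 in the mutant (0.47; limma adjusted p = 0.566), and the third was dim. The brightest carries the suffix with which the array's maker marks probes that may match several transcripts. *GstO3* overlapped between the groups (-0.15), and *GstO1* and *se* were dim.

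Of the theta genes, *GstT4* on the X chromosome gave 278 and 351 in wild type against 413 and 488 in the mutant. The groups did not overlap, and the log2 change was 0.52 ± 0.19 (SE; limma adjusted p = 0.219). *GstT3*, also on the X chromosome, overlapped between the groups (-0.18), and *GstT2* was dim. Both zeta genes, which are neighbours on 3R, were dim. Their class holds maleylacetoacetate isomerase, an enzyme of tyrosine breakdown.

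*GstZ1* gave 96.1 and 38.1 in wild type against 10.4 and 14.1 in the mutant, so that both mutant arrays lay below both wild-type arrays. Its log2 change was -2.32 without a test, and -0.87 with 50 added to each signal. The wild-type arrays differed 2.52-fold from each other. *GstZ2*, beside it, gave 31.3 and 34.3 in wild type against 40.2 and 32.8 in the mutant, which overlapped. Of the genes of tyrosine breakdown *Hpd*, *hgo* and *Faa* were dim, and the aminotransferase gene *Tat*, the only one tested, was not called (-0.50; limma adjusted p = 0.490).

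Counted without the model, mutant and wild-type arrays did not overlap for 16 of the 20 tested GST genes (80%), beside 47.8% of all tested genes. The mutant was higher for 10 of them, beside 24.4% of all tested genes, and lower for 6, beside 23.4%. The filter bears on these counts. *GstD9* and *GstE4*, counted as higher, each had a wild-type array below 39.5 (14.0 and 17.3) and both mutant arrays above it. *GstZ1*, lower without overlap, was left out as dim, with mutant arrays of 10.4 and 14.1. By class, non-overlap was seen for 5 of 5 tested delta genes (3 higher, 2 lower), 8 of 10 epsilon genes (6 higher, 2 lower), 1 of 2 omega genes (lower), the sigma gene (lower) and 1 of 2 theta genes (higher). Among the 14 dim genes, 2 were higher and 2 lower without overlap, beside 18.4% and 16.8% of all dim genes.

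The genes around the GSTs in glutathione and redox metabolism were described next, as 4 lists. Of 25 tested genes 3 rose (12%, beside 1.87% of all genes tested) and 0 fell (beside 1.37%), and the median log2 change was 0.36. All 3 were in the list of thioredoxin, glutaredoxin and peroxide enzymes, where 12 genes were tested. *dhd*, a thioredoxin of the female germline, was also counted above among the germ plasm markers that rose, so 1 of these 3 is shared. It gave 127 and 127 in wild type against 427 and 413 in the mutant. Its log2 change was 1.72 ± 0.18 (SE; limma adjusted p = 0.00313).

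*Grx1*, a gene for a glutaredoxin, which reduces disulfides at the expense of glutathione, gave 129 and 105 in wild type against 390 and 350 in the mutant. The groups were well apart, with a log2 change of 1.67 ± 0.21 (SE; limma adjusted p = 0.00575), but without mutant array 1 the limma adjusted p was 0.0649. *Cat*, the catalase gene, gave 447 and 426 in wild type against 756 and 712 in the mutant. Its log2 change was 0.75 ± 0.14 (SE; limma adjusted p = 0.0362). That call was lost on leaving out any 1 array (limma adjusted p from 0.0803 to 0.250), under median centring, without the trend and with dim probe sets kept, which also ended those for *dhd* and *Grx1*.

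Limma called 0 of 4 genes of glutathione synthesis and salvage (median 0.70), 0 of 3 regulators and 0 of 6 other glutathione transferases and conjugate exporters (median -0.10), with 1 gene of each list at an unadjusted p under 0.05. All genes tested gave 1.87% called higher and 1.37% lower, and at that unadjusted p 8.99% above 0 and 7.37% below. The median of 0.70 includes *Gclc* (24.9 and 39.46 in wild type against 43.2 and 65.7 in the mutant), tested only through its mutant arrays. In the synthesis list the smallest p-values belonged to *CG4829* at 0.78 (limma adjusted p = 0.211) and to *Gclm*, the modifier subunit gene of glutamate-cysteine ligase, at 0.36 (limma adjusted p = 0.367). Of the regulators, the small Maf gene *maf-S* was at 0.36 (limma adjusted p = 0.286), *Keap1* at 0.28 and *cnc*, which encodes CncC, at 0.14. In the last list the exporter gene *MRP* was at -0.41 (limma adjusted p = 0.255) and the microsomal enzyme's gene *Mgstl* at -0.57 (limma adjusted p = 0.366).

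**Figure D4:**
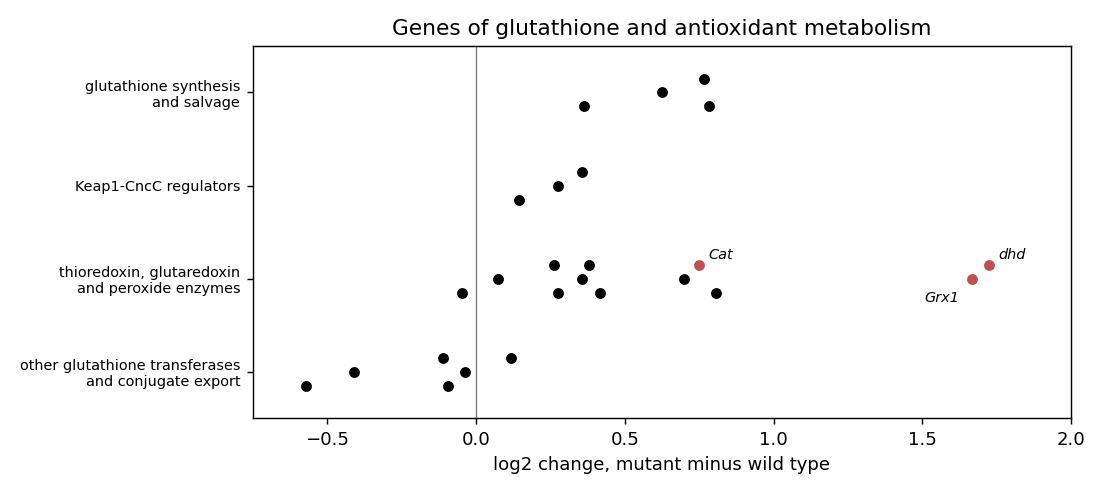
Log2 change (mutant minus wild type) of the 25 tested genes in 4 lists of glutathione and antioxidant metabolism, 1 point per gene. The called genes *dhd*, *Grx1* and *Cat* are red, at 1.72, 1.67 and 0.75; points are spread vertically within a list for legibility.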

How the data were processed

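Per the submitters' processing notes the deposited intensity values are MAS5 signals, 1 per probe set and array, on a linear scale; their settings and a genome build were not stated. The mean without the highest and lowest 2% was 250.04 on every array, so no further scaling was applied. The number of arrays limits the precision: an exact permutation test of 2 against 2 arrays cannot go below p = 0.333. The labels call the samples independent.

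Signals under the 5th percentile (3.38) were set to it and converted to log2. Tests excluded 44 control probe sets and all probe sets under the 40th percentile of mean log2 signal, leaving 8380 of 13966. The limma package (version 3.58.1, R 4.3.3; lmFit, then eBayes with trend, 5.80 prior and 2 residual degrees of freedom) compared mutant with wild type; the steps were tested on simulated data. Symbols came from the platform annotation and were updated by Entrez ID to RefSeq Release 6 plus ISO1 MT, which matched all 34 GST genes; gene order and chromosome arms came from that table. GST genes within 20 kb of each other were taken as one row. Promoter, protein and probe sequences were not analysed here.

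Values on every array are given for GST genes that passed, for those without overlap and with a log2 change of at least 1 in size, and for the brightest of each class; others were added for comparison. In other lists the called genes or the 2 with the smallest p are named. Members and lists were chosen with earlier results of these data known. Alternatives were the replicate block, median centring, quantile normalization, a 60th percentile filter or none, 50 added, no trend, a robust fit, an adjusted p under 0.1, the mean over a gene's probe sets, and leaving out each array.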

Additional observations from a re-analysis of the deposited data

How the results depend on the processing

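With 2 arrays a group the spread rests on 2 residual degrees of freedom, and the dim genes have no test. The count of GST genes that rose, 3, was 7 with the replicate block, 0 with no filter on dim probe sets, 1 without the mean-variance trend and 1 to 4 on leaving out an array (1 without mutant array 2); it was 3 under the other settings, and the count that fell was 0 throughout. The block added *GstE7*, *GstE9*, *GstD9* and *GstT4* (limma adjusted p = 0.0159, 0.00907, 0.0145 and 0.0445); the labels do not say that the number marks a shared batch, and same-numbered arrays deviated from their group means with a correlation of r = 0.183. *GstE3* kept its call except with no filter (limma adjusted p = 0.0891). *GstE6* and *GstD1* lost theirs there (0.126 for both) and without the trend (0.0709 and 0.0846). The count of redox genes that rose, 3, was 5 with the block, where 1 fell (*Mgstl*), 0 with no filter and 1 to 3 without an array (1 without mutant array 1). All changed probe sets, 255, were 825 with the block, 0 with no filter (1782 at an unadjusted p under 0.05), 401 at an adjusted p under 0.1, 95 without the trend and 106 to 166 without an array. The 16 GST genes without overlap were 10 with the 60th percentile filter, which tests fewer genes, and 17 to 19 without an array. Leaving out an array cannot create overlap for a gene still tested, so the latter counts are no check of the 16. The median of 0.31 was 0.52 with the 60th percentile filter, 0.35 with no filter, 0.25 with 50 added and 0.26 to 0.36 without an array. Uncalled genes near 0 changed sign when an array was left out: *GstE13* ranged from -0.47 to 0.15 (above 0 without mutant array 1), *GstE1* from -0.13 to 0.44 (below 0 without mutant array 1 or wild-type array 1) and *GstO3* from -0.34 to 0.040 (above 0 without wild-type array 1). Other causes were not tested.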
